A study of Homo sapiens with 14 samples.

Results

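MAP3K7 and 8 of its partners carry signals to NF-kB, and their splicing was compared between HEK293T cells with wild-type SF3B1 (WT) and with SF3B1 K700E (MT). The members were every splice event of MAP3K7, TAB1, TAB2, TAB3, CHUK, IKBKB, IKBKG, NFKB1 and RELA whose junction reads, averaged over both genotypes, reached at least 10. This left 96 events in 9 genes, out of 94061 events with as many reads in the whole table. HEK293T is a human embryonic kidney line, and the isogenic MT cells carried K700E at the endogenous locus. No drug or other treatment was applied, and the number of clones behind each genotype is not given in the sources used here, so genotype and line cannot be told apart. There were 3 WT and 3 MT RNA-Seq libraries, and DRIP-seq of Nalm-6, a human leukemic B cell line, supplied 2 WT and 2 MT libraries of untreated DNA and as many of DNA treated with RNase H1 (RNH1). The splicing table lists 6 MT values per event and gives 3 of them a column; these 3 are called the MT libraries here. Whether they match the 3 labelled MT samples could not be settled, and mean MT reads cover all 6 values. Nothing in the labels says that libraries came from separate cultures, so p-values measure the spread between these libraries, which may be technical.

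MAP3K7 encodes TAK1, a kinase that is switched on when receptors of the TNF, Toll-like and interleukin-1 families build ubiquitin chains. TAB1 activates the kinase, and TAB2 and TAB3 tie it to those chains. TAK1 then phosphorylates the IKK complex of CHUK (IKKα), IKBKB (IKKβ) and IKBKG (NEMO), which marks the inhibitor of NF-kB for destruction and frees the dimer of NFKB1 (p50) and RELA (p65) to enter the nucleus. SF3B1 is the part of the U2 snRNP that holds the branch site of an intron, and its K700E form is known for the use of cryptic 3′ splice sites a short way upstream of the normal ones.

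The acceptors of exons 4 and 5 of MAP3K7 are shown first, because the junction with the lowest reads in MT joins these exons. Whether the donor of exon 4 or the acceptor of exon 5 bears on it was not tested. MAP3K7 spans chr6:90513573-90587086 on the minus strand of GRCh38, and its canonical transcript has 17 exons. Exon 5 is coding, is 139 bases long and lies at chr6:90560076-90560214. The annotation (GENCODE 44) has 16 transcripts with this acceptor and 2 with an acceptor 20 bases upstream, and both of the latter are annotated as targets of nonsense-mediated decay. In the first line the capitals mark the 20 bases between the upstream and the downstream acceptor, and in the second they mark the AG of the acceptor. Both are written 5′ to 3′ along the transcript, taken from the hg38 genome at chr6:90560195-90560284 and chr6:90561648-90561737.
MAP3K7 exon 5 acceptor: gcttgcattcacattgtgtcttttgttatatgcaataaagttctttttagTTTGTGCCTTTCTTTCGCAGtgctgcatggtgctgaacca
MAP3K7 exon 4 acceptor: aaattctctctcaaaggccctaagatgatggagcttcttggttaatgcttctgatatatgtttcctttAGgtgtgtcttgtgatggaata

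The 20 added bases leave a remainder of 2 on division by 3, so they shift the reading frame. Translation through the longer exon 5 would add 23 codons after the 114 whole codons of exons 1 to 4 and then meet a stop, 88 bases before the end of exon 5 and with 12 junctions still to follow. The canonical protein has 606 residues. An AG between 10 and 30 bases upstream is common and does not mark this acceptor out: 7 of the 16 acceptors of MAP3K7 (43.8%) and 54 of the 125 acceptors of the 9 genes (43.2%) have at least 1, against 43.0% of 186446 acceptors of canonical coding transcripts. The events analysed here include 0 alternative 3′ splice site events of MAP3K7, so reads that join exon 4 to the upstream acceptor were not analysed here.

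Reads that joined exon 4 to exon 5 of MAP3K7 were far fewer in MT than in WT. The 3 WT libraries had 76, 85 and 47 such reads, and the 3 MT libraries had 14, 10 and 14. In reads per 1000000 junction reads listed for the library (RPM), this was 14.9 ± 3.44 in WT against 2.77 ± 0.722 in MT (SD, n = 3 each), a ratio of 0.186. The groups did not overlap, and the two-sided exact permutation test gave p = 0.1, the smallest that 3 libraries against 3 allow.

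The ratios at the neighbouring junctions were nearer to 1. From exon 5 to exon 6 the WT libraries had 84, 94 and 99 reads, against 55, 69 and 75 in the MT libraries, a ratio of 0.707 in RPM. From exon 6 to exon 7 they had 87, 133 and 108 reads in WT against 54, 57 and 89 in MT, a ratio of 0.599, and neither of these junctions overlapped between the groups (exact permutation p = 0.1 for each). Reads from exon 3 to exon 4 that did not run on into exon 5 numbered 44, 25 and 19 in WT against 27, 14 and 12 in MT, a ratio of 0.635 with overlapping groups (exact permutation p = 0.4). Exon 4 is short, with 46 bases, and reads that ran from exon 3 through it into exon 5, taken as a difference between 2 events, numbered 31, 28 and 19 in WT against 5, 4 and 4 in MT. With both kinds together the exon 3 to 4 junction had 75, 53 and 38 reads in WT against 32, 18 and 16 in MT, a ratio of 0.417 without overlap (exact permutation p = 0.1).

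The entry to exon 5 was also set against its exit in the same library, a share that does not depend on the depth of the library. The share of exon 4 to 5 reads among those entering or leaving exon 5 was 47.5%, 47.5% and 32.2% in the WT libraries and 20.3%, 12.7% and 15.7% in the MT libraries. Each share rests on 69 to 179 reads, and the Wilson 95% intervals, which cover counting error only, were 25.2% to 40.1% for the lowest WT library and 12.5% to 31.2% for the highest MT library. The mean share was 42.4% ± 8.83 in WT against 16.2% ± 3.84 in MT (SD, n = 3 each), a difference of -26.2 percentage points with p = 0.1 by the exact permutation test. Every MT library lay below every WT library. These reads were taken from the forms of the events described next, after their values were seen, and the sum of both junctions differed from the reads counted for exon 5 as a cassette by at most 1 read in each library.

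In the terms of the inclusion level, the share of a splice form after correction for its length, the same reads gave the largest difference of any member event. The event in which exon 5 is set against exon 6 had levels of 0.466, 0.390 and 0.303 in WT against 0.206, 0.149 and 0.136 in MT, a difference of -0.22 ± 0.0897 (SD, n = 3 each). Although this type is called mutually exclusive exons, both exons were kept together: the cassette event of exon 6 had a level of 1 in all 6 libraries, and that of exon 5 a level of 1 in 5 libraries and 0.978 in 1 MT library. The level therefore compares reads at the exon 4 to 5 junction with reads at the exon 6 to 7 junction. Its p was 0.000156 and its adjusted p 0.214 by limma with Benjamini-Hochberg adjustment over 83581 events, so it was not called at an adjusted p under 0.05 with a difference above 0.1. With robust empirical Bayes variances it was called, at an adjusted p of 0.0285.

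A pair of further MAP3K7 events did not overlap between the groups and differed by over 0.1. Exon 3, set against exon 4 between exons 2 and 5, had levels of 0.669, 0.531 and 0.728 in WT against 0.810, 0.814 and 0.801 in MT, a difference of 0.17 ± 0.101 (adjusted p = 0.838 by limma with Benjamini-Hochberg adjustment). The other form of this event holds the exon 4 to 5 junction, and its mean reads were 43.3 in WT against 10.5 in MT. Exon 4, kept or skipped between the donor of exon 1 and exon 5, had a level of 1 in the 3 WT libraries and 0.858, 0.668 and 0.870 in MT, a difference of -0.20 ± 0.113 (adjusted p = 0.341 by the same test). That difference rests on few reads: skipping had 0 reads in each WT library and 1, 2 and 1 in MT, while retention had 45, 57 and 28 reads in WT against 9, 6 and 10 in MT.

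The other MAP3K7 events overlapped between the groups, and they include events with and without the exon 4 to 5 junction. With that junction, the cassette event of exon 4 between exons 3 and 5 stayed between 0.965 and 1 in all libraries, and the cassette event of exon 5 is given above. Without it, exon 4 set against exon 5 had levels of 0.413, 0.263 and 0.205 in WT against 0.397, 0.214 and 0.177 in MT in an event that leaves out reads running from exon 4 into exon 5. Intron 8 was retained at 0.194, 0.101 and 0.124 in WT against 0.210, 0.227 and 0.127 in MT. Exon 12, a cassette exon of 81 bases that keeps the frame, was included at 0.100, 0.062 and 0.082 in WT against 0.060, 0.118 and 0.110 in MT. Exon 16 was included at 0.99, 0.938 and 1 in WT against 0.950, 0.938 and 0.928 in MT, with a p of 0.0264 and an adjusted p of 0.856 by limma with Benjamini-Hochberg adjustment.

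**Figure D1:**
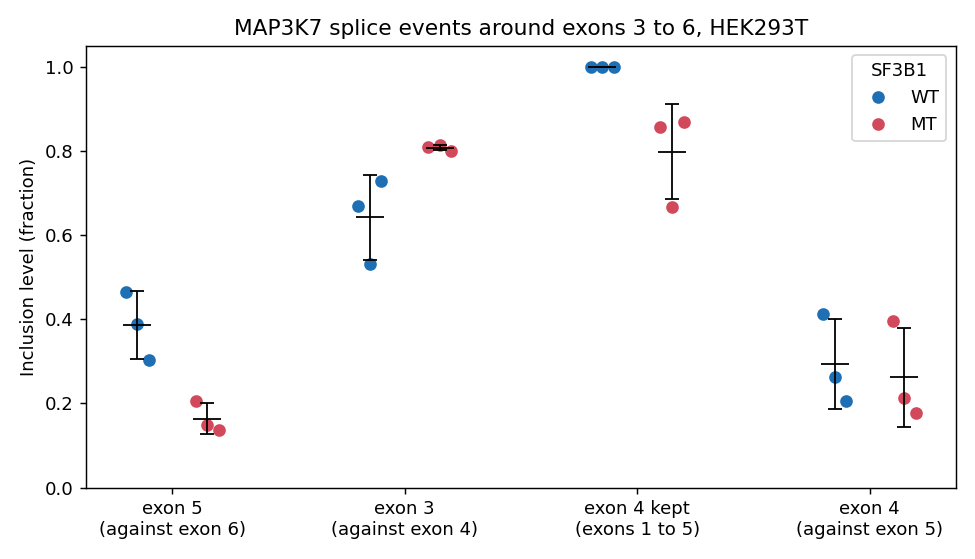
Inclusion level (fraction) of 4 MAP3K7 events in each HEK293T library; points are libraries, the horizontal marks are group means and the bars are SD (n = 3 each). The WT and MT points are apart in the first 3 events, which hold the exon 4 to exon 5 junction, and mixed in exon 4 against exon 5, which does not; in the 2 other events with that junction, not plotted, the groups overlapped.

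Reads were lower in MT over the whole of MAP3K7, and the ratio of MT over WT was lowest over the events with that junction. All 13 MAP3K7 events had lower mean reads in MT, with a median log2 ratio of MT over WT of -0.94. The median over all 94061 events was 0.02, with 5% of them under -0.45. The 5 events with the exon 4 to 5 junction had ratios of 0.262 to 0.467 (median 0.438), and the 8 others ratios of 0.502 to 0.673 (median 0.575), without overlap. These events share reads and are not independent of each other.

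The single libraries gave the same picture. Of the 12 MAP3K7 events whose lists of reads are intact, 10 had fewer reads (RPM) in every MT than in every WT library, against 3.31% of 68142 events in the table. The event of exons 5 and 6 had 34.9, 44.7 and 36.3 RPM in WT against 17.2, 14.2 and 19.6 in MT. The 2 events that overlapped were the cassette events of exons 2 and 13. Of the 6386 genes with at least 5 events, 14 (0.219%) had a median read ratio at or below that of MAP3K7. Reads at junctions count spliced RNA, and less RNA per cell cannot be told apart here from fewer cells that express the gene.

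**Figure D2:**
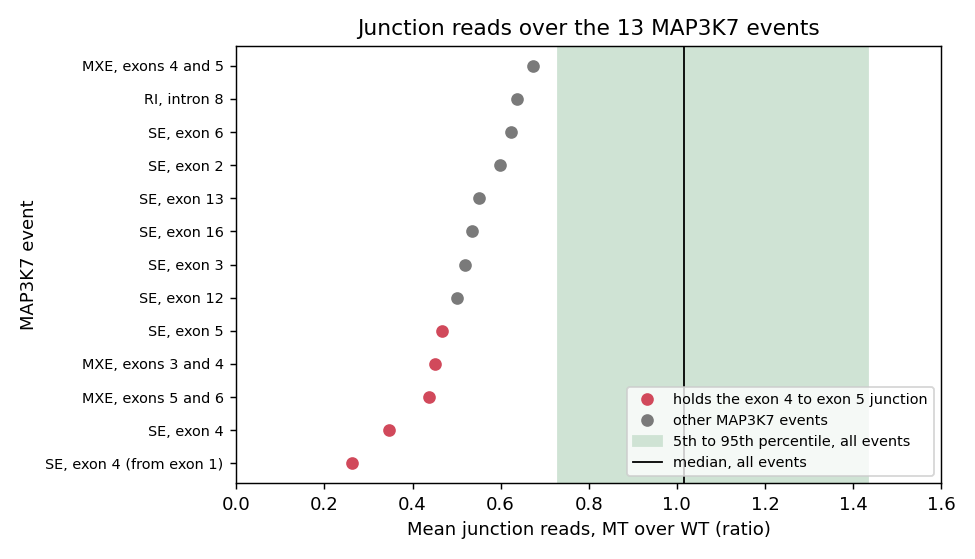
Ratio of the mean junction reads, MT over WT, for the 13 MAP3K7 events (SE, cassette exon; MXE, pair of exons set against each other; RI, retained intron). Each point is an event, and the band is the 5th to 95th percentile and the line the median of all 94061 events; the 5 events with the exon 4 to 5 junction lie lowest, at 0.262 to 0.467.

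None of the events of the 3 TAB proteins differed by more than 0.1. TAB1, the activating subunit (chr22:39399778-39437060), had 2 events. Its exon 8 had the most reads, and its level was 0.99, 1 and 1 in WT against 1 in the 3 MT libraries. TAB2, an adaptor for ubiquitin chains (chr6:149218641-149411613), had 7 events with differences between -0.02 and 0.06. The large coding exon 3 of TAB2, 1501 bases, had levels of 1, 0.99 and 1 in WT against 1, 1 and 0.993 in MT, from 193 and 220 mean reads. The largest TAB2 difference, 0.06, came from an exon outside the coding part with 0.818, 1 and 1 in WT against 1 in each MT library, at a mean of 11.4 reads.

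TAB3, the X-linked relative of TAB2 (chrX:30827442-30975084), had a wider spread. Exon 9 set against exon 10 had levels of 0.536, 0.441 and 0.441 in WT against 0.489, 0.319 and 0.330 in MT, a difference of -0.09 ± 0.110 with overlapping groups. Exon 8 set against exon 9 had 0.535, 0.583 and 0.630 in WT against 0.670, 0.631 and 0.609 in MT, and these groups overlapped as well. An exon of 139 bases between the coding exons was the TAB3 event whose groups did not overlap, at 0, 0.013 and 0 in WT against 0.017, 0.042 and 0.021 in MT. That separation rests on few reads: inclusion had 0, 1 and 0 reads in WT against 1, 2 and 1 in MT. By reads, 3 of the 12 intact TAB3 events had more (RPM) in every MT than in every WT library, against 4.13% of all events in the table, and 0 had fewer in every MT library. These 3 events all use exon 8 or its acceptor and are not independent of each other. The event of exons 8 and 9 had 11.4, 16.2 and 12.4 RPM in WT against 18.2, 20.7 and 18.04 in MT.

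Among the kinase subunits and the scaffold of IKK, no event of over 0.1 separated the groups. CHUK (chr10:100188300-100229596) had 7 events, and the one with the most reads, exon 7 of 125 bases, had a level of 1 in each WT library and 0.988, 0.988 and 0.992 in MT, a difference of -0.01 with an adjusted p of 0.856 by limma with Benjamini-Hochberg adjustment. IKBKB had 23 events and a wider spread, with fewer reads. Its exon 4, kept or skipped after exon 2, had the largest difference of the 8 partners, -0.16, but the libraries ran from 0.625 to 1 in WT (0.625, 0.789 and 1) and from 0.417 to 0.818 in MT (0.714, 0.818 and 0.417), at a mean of 12.8 reads.

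For IKBKB, 2 other events separated the groups by less than 0.1. Exon 3, in a cassette event whose upstream exon does not have the bounds of a canonical exon, was included at 0.677, 0.615 and 0.621 in WT against 0.697, 0.724 and 0.740 in MT. In another cassette event of exon 3 the levels were 0.882, 1 and 1 in WT against 1 in each MT library. The longer form of exon 12, which begins 53 bases upstream of the shorter form, had a level of 1 in each WT library and 0.968, 0.976 and 0.983 in MT. That separation rests on 1 read of the shorter form in each MT library, against 0 in each WT library. The IKBKB event with the most reads, exon 7 against exon 8, overlapped, at 0.416, 0.373 and 0.548 in WT against 0.563, 0.285 and 0.343 in MT. IKBKG (chrX:154541199-154565046) had a single event with enough reads, exon 4, with a level of 1 in all 6 libraries at a mean of 10 reads, so smaller changes were not detectable at this depth.

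NFKB1 and RELA, the subunits of the transcription factor, have alternative 3′ splice sites among their events, the type for which SF3B1 K700E is known. For both, the pair with the largest difference of the gene is shown for comparison with exon 5 of MAP3K7. IKBKB and TAB3 have such events too. The sites of IKBKB exon 7 lie 25 bases apart. Its longer form had levels of 1, 0.877 and 0.886 in WT against 1, 1 and 0.940 in MT, with overlapping groups. The NFKB1 pair lies 3 bases apart (chr4:102533795-102533867, plus strand), with these bases in capitals. The RELA pair lies 142 bases apart (chr11:65662328-65662397 and chr11:65662186-65662255, minus strand), with the last bases before each exon in capitals.
NFKB1 tandem acceptor: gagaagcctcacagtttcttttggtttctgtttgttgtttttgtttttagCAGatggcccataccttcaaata
RELA upstream acceptor: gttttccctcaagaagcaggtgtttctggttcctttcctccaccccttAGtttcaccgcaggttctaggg
RELA downstream acceptor: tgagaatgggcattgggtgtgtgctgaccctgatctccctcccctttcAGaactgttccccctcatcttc

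Use of the upstream NFKB1 acceptor was 0.623, 0.518 and 0.620 in WT against 0.777, 0.614 and 0.535 in MT, the largest difference of that gene at 0.055 ± 0.137, with overlapping groups, and -0.0125 without the first MT library. Use of the upstream RELA acceptor was 0.014, 0.027 and 0.127 in WT against 0.029, 0.031 and 0.034 in MT, a difference of -0.02, or 0.0108 without the third WT library. The RELA event whose groups did not overlap was another pair of acceptors, 9 bases apart at exon 6. Its longer form had levels of 0.989, 0.991 and 0.983 in WT against 1 in each MT library. RELA had the narrowest range of the genes with over 10 tested events: its 19 tested events differed by -0.02 to 0.01. The RELA event with the most reads, exon 5, stayed between 0.986 and 1. Exon 8 of NFKB1, with the most reads of that gene, had a level of 1 in all 6 libraries.

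Over all members, 0 of the 80 events tested were called by limma, against 26 of 83581 events in the table (0.0311%). At an unadjusted p under 0.05 there were 6 member events (7.50%), of which 4 belonged to MAP3K7, 1 to CHUK and 1 to IKBKB, against 4.47% of all events. The WT and MT levels did not overlap in 9 member events (11.2%), against 5.46% of all events: 3 of MAP3K7, 2 of IKBKB and 1 each of CHUK, TAB2, TAB3 and RELA. With a difference above 0.1 as well there were 3, all of MAP3K7, against 1.73% of all events. These 3 share reads of the exon 4 to 5 junction and are not independent of each other. They are also among the 4 MAP3K7 events at an unadjusted p under 0.05. A difference above 0.1, overlapping or not, was seen in 5 member events (6.25%), against 5.8% of all events. The median absolute difference of the members was 0.0168 and that of all events tested 0.0137. The other 16 member events had the same level in all 6 libraries, which was 1 in each, and were not tested.

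**Figure D3:**
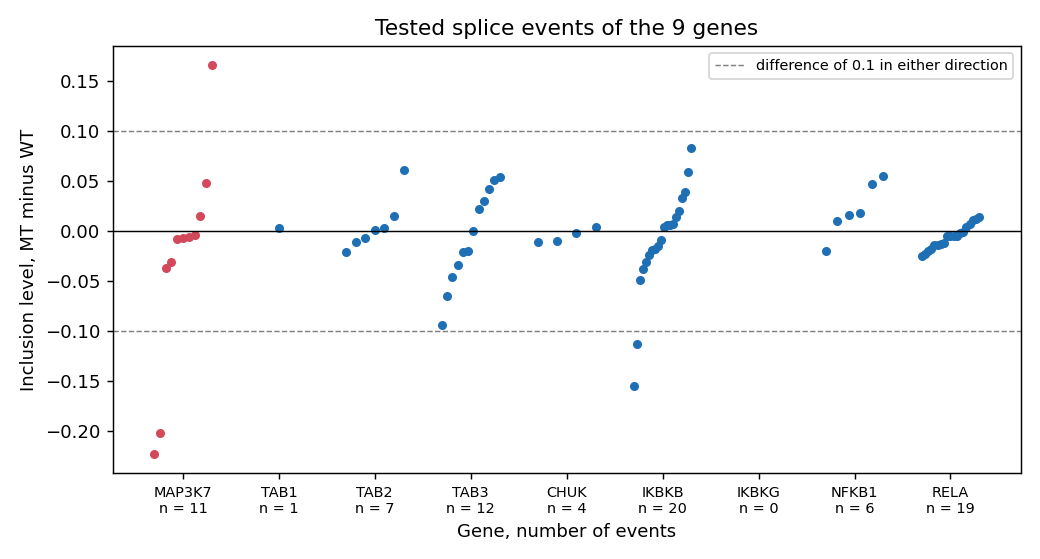
Difference in mean inclusion level, MT minus WT, of the 80 tested events by gene; each point is an event and the dashed lines mark differences of 0.1. MAP3K7 has 3 events beyond the lines, which share reads. IKBKB has 2, at lower reads and with overlapping libraries, and the other genes have 0.

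The level of reads set MAP3K7 apart from the other 8 genes in the same way. The 13 events of MAP3K7 all had a log2 read ratio under -0.5, against 3.87% of all events, and 0 of the 83 events of the other members did. Median log2 ratios were 0.00 for TAB1, 0.17 for TAB2, 0.19 for TAB3, 0.05 for CHUK, 0.16 for IKBKB, 0.49 for the single IKBKG event, 0.11 for NFKB1 and 0.16 for RELA.

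**Figure D4:**
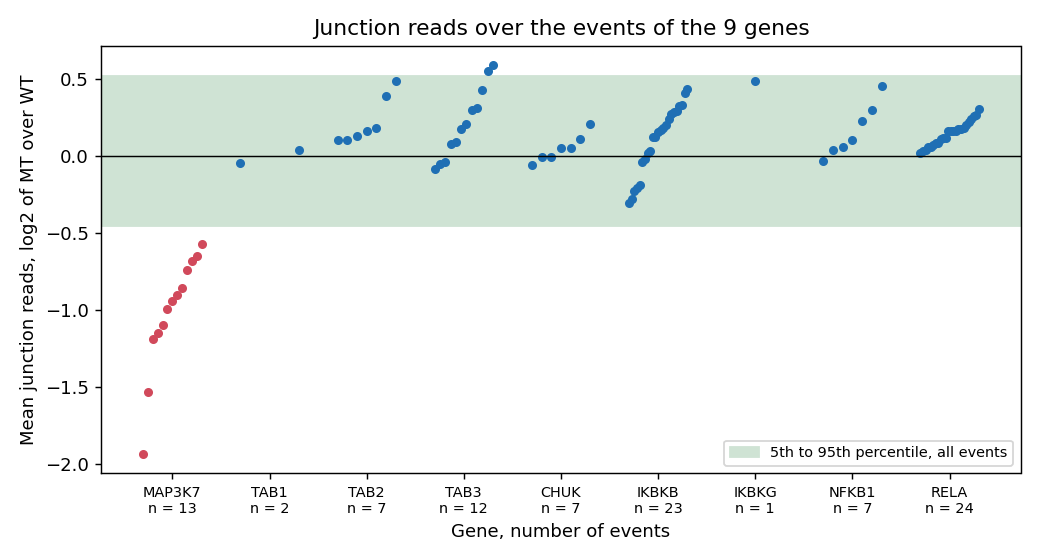
Mean junction reads as log2 of MT over WT for the 96 events by gene; each point is an event and the band is the 5th to 95th percentile of all events (-0.45 to 0.52). All 13 points of MAP3K7 lie below the band, and the medians of the other 8 genes lie within it.

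Of 81 other genes of the pathway, in 8 lists, 62 had events with enough reads. Of their 412 tested events 0 were called, 24 had an unadjusted p under 0.05 (5.83%) and 9 did not overlap with a difference above 0.1, beside the 1.73% of all events given above. The list of TGF-beta and BMP receptors and the proteins that link them to TAK1 had 5 of these 9 among its 60 events. SMAD7, an inhibitory SMAD, had the largest difference, in a pair of exons set against each other, with levels of 0.529, 0.555 and 0.505 in WT against 0.297, 0.360 and 0.316 in MT. XIAP, which binds TAB1, kept an exon at 0.936, 0.918 and 0.868 in WT against 0.852, 0.688 and 0.686 in MT. TGFBR1, a receptor kinase, had a level of 0.030, 0.074 and 0.040 in WT against 0.085, 0.207 and 0.212 in MT. TGFBR1 is also among the transcripts that the study selected for large splicing changes in SF3B1 mutant cells.

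BMPR2 and TGFBR3, receptors from the same list as TGFBR1, differed by 0.11 and 0.13. In the alternative NF-kB arm, the longer form of an NFKB2 exon, with acceptors 3 bases apart, had levels of 0.197, 0.215 and 0.173 in WT against 0.395, 0.299 and 0.390 in MT, and TRAF3 differed by 0.10. In the MAP kinase arm below TAK1, the JNK genes MAPK8 and MAPK9 differed by 0.15 and 0.11. In the list of receptor-proximal adaptors and ubiquitin enzymes, UBE2V1 differed by -0.09. None of these 10 events passed adjustment (adjusted p of 0.693 to 0.856 by limma with Benjamini-Hochberg adjustment).

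The lists of brakes on NF-kB (46 events tested), IkB degradation (66), other MAP3 kinases feeding NF-kB (16) and the antigen receptor arm (6) had 0 events that separated the groups by more than 0.1. No gene of the lists with at least 5 events had reads as low in MT as MAP3K7: the lowest median log2 ratio was -0.30, in MAP2K7. As a check of the labels, 2 of 164 tested events in 13 splicing targets that the study itself chose were called. Of these genes, 11 had 0 calls. The study took some of these targets, SERBP1 among them, from events shared by its isogenic lines, HEK293T included. The check is therefore not independent of these data. An alternative 3′ splice site of SERBP1 rose from 0.461, 0.500 and 0.509 in WT to 0.801, 0.757 and 0.805 in MT, and one of DLST rose from 0.047, 0.069 and 0.059 to 0.293, 0.455 and 0.365 (adjusted p = 6.76e-10 and 5.91e-05 by limma with Benjamini-Hochberg adjustment).

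In Nalm-6 cells, DRIP-seq, which pulls down DNA:RNA hybrids, gave more peaks in MT over MAP3K7, TAB2, TAB3, CHUK and NFKB1. MAP3K7 held 3 and 4 peaks in the untreated WT libraries and 8 and 13 in the MT libraries. TAB2 held 14 and 16 in WT against 22 and 25 in MT, TAB3 held 3 and 2 in WT against 9 and 8 in MT, CHUK held 5 and 5 in WT against 8 and 9 in MT, and NFKB1 held 10 in each WT and 16 in each MT library. TAB1, IKBKB, IKBKG and RELA held at most 1 peak in any library, and RELA held 1 in each untreated WT and 0 in each untreated MT library. After RNH1 treatment MAP3K7 still held 8 and 7 peaks in MT, against 1 and 2 in WT.

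Summed over the 9 genes this made 36 and 39 peaks in WT against 64 and 72 in MT, a log2 ratio of 0.86 ± 0.15 (SD of the difference, n = 2 each; exact permutation p = 0.33, the smallest possible). The peak lists of MT were longer as a whole, with a log2 ratio of 1.11, and the 9 genes took 0.0252% and 0.0243% of all peaks in MT and 0.0291% and 0.0297% in WT. After RNH1 treatment the sums were 6 and 14 in WT against 48 and 40 in MT, which is 0.0172% and 0.0181% of all peaks in WT against 0.0238% and 0.0201% in MT, a higher share in MT where the untreated share was lower. All 8 libraries had 0 peaks within 1000 bases of the exon 5 acceptor of MAP3K7.

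**Figure D5:**
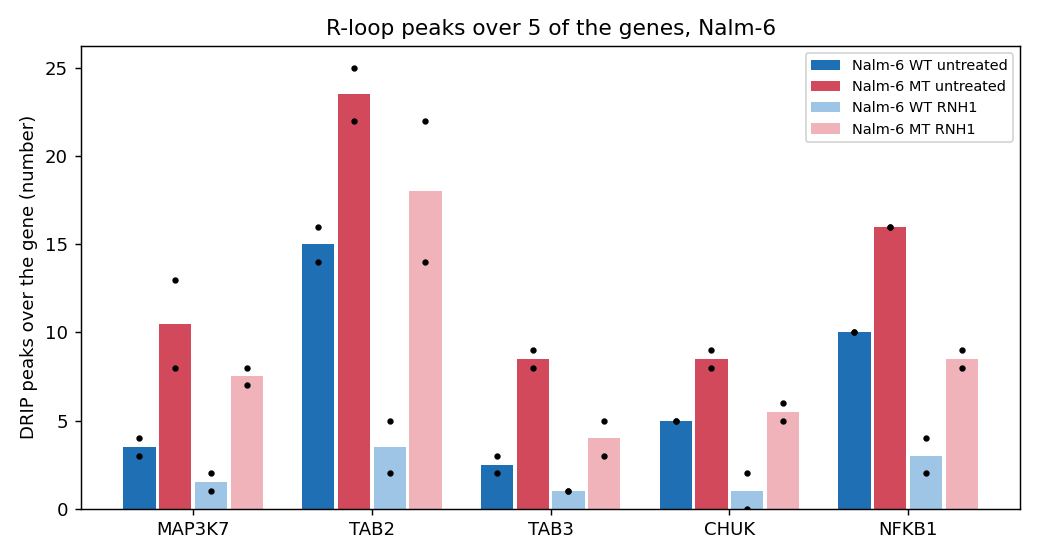
Number of DRIP-seq peaks over 5 of the genes in Nalm-6; bars are means of 2 libraries and dots the libraries. MT bars exceed WT bars in all 5 genes with and without RNH1, while the lists of all peaks were longer in MT as well, from 34952 and 77550 to 201804 and 198837 peaks with RNH1 and by a log2 ratio of 1.11 without it.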

How the data were processed

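RNA-Seq of HEK293T cells (3 WT, 3 MT) and DRIP-seq of Nalm-6 cells were used. Per the labels' processing notes and the study's methods, the RNA-Seq reads were stranded and paired-end. For DRIP-seq the methods give a single-read protocol. By the same sources, reads were aligned to GRCh38 (tools named: STAR, StringTie, BWA). Splicing was analysed with the rMATS model, and DRIP peaks were called per library with MACS2. The deposited inclusion level of each event is a fraction, and the authors' deposited peak lists give a ratio, the fold enrichment at the summit. The table also holds the authors' own p-values, which were not used. It lists 6 MT values per event, and only 3 have a column; it is not settled that these are the 3 MT samples, and the authors' mean MT reads cover all 6. MT libraries are given in the order of these columns. Some lists of reads had lost digits, so lists were used only where their mean matched the authors' mean within 0.01 reads (88430 events, 3946942 to 5265438 listed reads per library); these lists gave back the deposited levels of the 6 columns within 0.001 in every event compared.

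Levels, transformed as arcsine of their square root, were compared with limma 3.58.1 under R 4.3.3, with a variance trend on reads, two-sided, with Benjamini-Hochberg adjustment over 83581 events that had at least 10 mean reads and varied between libraries. Calls needed an adjusted p under 0.05 and a difference above 0.1. The step was tested on simulated data. No count model was fitted over all events. The reason given in the plan was that an earlier analysis could not match the junction counts to the samples. Part of the lists of reads had also lost digits. Exons are numbered along the canonical GENCODE 44 transcript. Events were named when called or when the groups did not overlap by over 0.1, when they had the most reads or largest difference of a member gene, when they touched exon 5 of MAP3K7, and, from the pathway, for the 10 largest separations; other events named were chosen after their values were seen. Members and lists were chosen with earlier results of these data known. A test of an alternative 3′ splice site of MAP3K7 had been intended and the event was not analysed here. Alternatives were another transform, variance model, read minimum, filter and each library left out, and for peaks a fold enrichment of at least 4 and the summit inside the gene.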

Additional observations from a re-analysis of the deposited data

How the results depend on the processing

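Of 12 other settings, robust empirical Bayes called 1 member event, exon 5 against exon 6 of MAP3K7, and the other 11 called 0 (3 to 9 at an unadjusted p under 0.05 by limma). No pathway event was called in any of them (12 to 26 at an unadjusted p under 0.05). Over all genes, 26 events were called, and that number depended on the model: 3 with the logit, 0 without a variance trend (3200 at an unadjusted p under 0.05, against 3740), 63 with robust variances, and 3 to 13 with 1 library left out. Of 199 refits of 17 named member events, 1 changed its call, and 11, in 7 events that were never called, changed sign. Only refits with 1 library left out could change sign, because the other settings leave the difference as it was. With 1 library left out, these 7 differed by -0.0125 to 0.108 (NFKB1 tandem acceptor), -0.0457 to 0.0108 (RELA upstream acceptor), -0.0047 to 0.003 (RELA exon 5), -0.132 to 0.0073 (IKBKB exons 7 and 8), -0.0982 to 0.0287 (MAP3K7 exons 4 and 5), -0.0117 to 0.0073 (MAP3K7 exon 4) and -0.0023 to 0.0033 (TAB2 exon 3). Exon 5 against exon 6 of MAP3K7 differed by -0.26 to -0.18 with adjusted p from 0.0285 to 0.894 (limma, Benjamini-Hochberg). The share of exon 4 to 5 reads, with 1 library left out, a choice made after seeing the data, differed by -31.3 to -23.6 percentage points. The log2 ratio of DRIP peaks over the 9 genes was 0.77 to 0.94 with 1 library left out, and 0.79 at a fold enrichment of at least 4.

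No paired analysis was possible because it is not known which MT sample each numbered MT column holds. With 3 libraries a group the exact test cannot fall under 0.1, and events with few reads, such as exon 4 of MAP3K7 after exon 1 and exon 4 of IKBKG, have coarse levels. Refits for an alternative 3′ splice site of MAP3K7 were not run, as no such event was analysed here.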
